A study of Mus musculus with 9 samples.

Results

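The clustered protocadherins are neighbouring cell surface genes of mouse chromosome 18, arranged as an alpha, a beta and a gamma cluster. Members were taken by name (*Pcdha*, *Pcdhb*, *Pcdhga*, *Pcdhgb* and *Pcdhgc* genes) from a table of normalized counts of 15184 genes, and 30 of these genes were members. The cells were mouse embryonic fibroblasts (MEFs), which are fibroblasts cultured from wild-type embryos. RNA of 9 libraries was sequenced, 3 from each of the groups Empty, SAM1 and SAM2. Empty libraries came from cells labelled Empty vector, for which the methods describe a control plasmid with a guide RNA without a target. The oligonucleotide list of the methods, however, prints a single sequence for this control guide and for the second of the *Hnrnpk* guides, so what the Empty cells carried could not be settled, and this bears on every comparison with Empty. Libraries of SAM1 and SAM2 carry the genotype label Hnrnpk_SAM, which stands for cells given an inactive Cas9, recruited transcriptional activators and a guide RNA directed at *Hnrnpk*. The methods describe lentiviral transduction and drug selection rather than isolated clones. All groups had the same serum medium. Which guide a line carried is not stated in the labels, nor whether libraries of a line were separate cultures, so p-values measure the spread between libraries, which may be technical.

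*Hnrnpk*, the targeted gene, had 25058, 26099 and 26164 normalized counts in the Empty libraries, 24102, 24045 and 23619 in the libraries labelled SAM1, and 26608, 26859 and 26221 in those labelled SAM2. It was lower in SAM1 (log2 change -0.11, adjusted p = 0.002516, limma) and did not pass the test in SAM2 (0.04, adjusted p = 0.1586). The sequenced RNA thus does not show the rise that the label names, whereas the paper reports overexpression in such cells by qRT-PCR and Western blot. SAM1 and SAM2 stand below for the libraries so labelled. Reads on listed genes numbered 41759636 to 49026626 in the 8 libraries where they could be recovered, and the members together held 0.0340% to 0.0444% of a library's summed values. All 12 fibroblast markers were listed, with a summed level of 1048610 to 1143440 in Empty, 865735 to 927412 in SAM1 and 1165990 to 1204540 in SAM2. These sums came mostly from *Fn1*, *Col1a1* and *Col1a2*. By limma (adjusted p below 0.05) 2 of the 12 were higher and 9 lower in SAM1, and 3 higher and 6 lower in SAM2. Of all genes 37.3% were higher and 36.9% lower in SAM1, and 35.2% and 35.3% in SAM2. Of 11 neuron markers 5 were listed, at 3464 to 3643, 3018 to 3176 and 1675 to 1711, and *Rbfox3*, *Elavl3*, *Elavl4*, *Snap25*, *Dcx* and *Neurod1* were not. Among these 5, 2 were called higher and 3 lower in SAM1, and 1 higher (*Tubb3*) and 3 lower in SAM2. Endothelial markers (4 of 5 listed) summed to 301 to 357 in Empty, 4613 to 4988 in SAM1 and 638 to 689 in SAM2, mostly through *Kdr*. Markers of neural progenitors, glia and neural crest (4 of 10 listed, with *Sox2*, *Gfap*, *S100b*, *Sox10*, *Foxd3* and *Olig2* not listed) summed to 2266 to 2408, 8730 to 8820 and 8004 to 8150, mostly through *Nes*. Epithelial markers (2 of 6 listed) reached 42.1 to 50.1, 110 to 113 and 42.7 to 52.4, leukocyte markers (2 of 4) 529 to 639, 753 to 800 and 652 to 689, and muscle markers (1 of 4) 44.4 to 83.0, 90.8 to 111 and 223 to 245. The part of these shifts in the results was not tested, and in bulk RNA fewer cells of a type and less RNA per cell cannot be told apart.

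Clustered protocadherins are cadherin-like proteins that bind copies of themselves on the neighbouring cell, and they are best known for letting neurites of a neuron tell self from other. In the alpha and gamma clusters each variable exon has its own promoter and is spliced to constant exons shared by the whole cluster, whereas beta genes use a single variable exon and no constant part. Promoters are chosen largely at random in neurons, with CTCF, cohesin and DNA methylation among the known regulators, while the C-type genes at the ends of the alpha and gamma clusters are used more evenly.

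GENCODE vM39, on the same GRCm39 build as the files, holds 59 names of this kind, 15 alpha, 22 beta and 22 gamma. No alpha gene was listed in the table, including *Pcdhac1* and *Pcdhac2*. Of the beta genes 12 were listed (*Pcdhb5*, *Pcdhb7*, *Pcdhb9* and *Pcdhb14* to *Pcdhb22*), and 10 were not. Of the gamma genes 18 were listed, 10 of gamma A, 5 of gamma B and the 3 C-type genes *Pcdhgc3*, *Pcdhgc4* and *Pcdhgc5*, while *Pcdhga7*, *Pcdhga8*, *Pcdhgb1* and *Pcdhgb5* were not. The table holds only genes above 10 normalized counts in at least 3 of 9 libraries, so members were selected on their levels over all libraries as well as by name, and genes under this filter were not analysed here. Above 10 in all 9 libraries were 23 members. *Pcdhb15* and *Pcdhga10*, each above 10 in 5 libraries, lay closest to the filter. *Pcdhga9* and *Pcdhga10* were above 10 in no Empty library and passed only through the other groups, so they had to differ. The beta cluster spans bases 37397991 to 37657532 of chromosome 18 and the gamma cluster bases 37794846 to 37975014. In the listed beta genes 90.3% to 100% of exon bases belonged to no other gene on the same strand, against 32.6% to 67.3% in the gamma genes, whose constant exons are shared. How reads in shared exons or reads matching several of these related genes were assigned is not given in the sources used here, and levels of single members are uncertain to that extent.

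Levels were very uneven. Per kb of exon not shared with another gene, *Pcdhgc3* had 3084 normalized counts in Empty, 3298 in SAM1 and 3545 in SAM2. *Pcdhb22* followed in Empty cells with 382 per kb, then *Pcdhb17* with 261, *Pcdhb20* with 215 and *Pcdhga11* with 196. In both lines *Pcdhga11* stood second among members, with 435 per kb in SAM1 and 556 in SAM2, and *Pcdhb22* had 206 and 293. The lowest member of the Empty cells was *Pcdhga10*, with 1.28 per kb.

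Each member's log2(normalized count + 1) was compared with limma, with p-values adjusted over all 15184 genes and a call at 0.05. In SAM1 10 members were higher than in Empty and 11 lower, where 37.3% of all genes were called higher and 36.9% lower. In SAM2 12 were higher and 7 lower, where 35.2% of all genes were called higher and 35.3% lower. Without *Pcdhga9* and *Pcdhga10* the counts were 8 higher and 11 lower of 28 in SAM1, and 10 higher and 7 lower in SAM2. In a fit limited to genes above 10 in every library, with 23 members, they were 6 and 10 in SAM1 and 7 and 6 in SAM2. Quantile normalization gave 10 higher and 16 lower in SAM1, where *Pcdhb9*, *Pcdhb15*, *Pcdhgb7*, *Pcdhgb8*, *Pcdhgc3* and *Pcdhgc5* were then called. It gave 10 higher and 10 lower in SAM2, where *Pcdhb19*, *Pcdhb21* and *Pcdhgb8* were then called. The median log2 change of the members was -0.13 in SAM1 and 0.06 in SAM2, beside 0.01 and 0.00 over all genes. With both lines pooled as 6 libraries, 11 members were higher (26.8% of all genes) and 7 lower (27% of all genes). That split was 8 higher and 9 lower with DESeq2 on recovered reads or quantile normalization, 10 and 4 without Empty replicate 1, 7 and 6 without Empty replicate 2, and 8 and 5 without Empty replicate 3. The lines share the Empty libraries, so their comparisons are not independent of each other. The groups within the family had different values, given below. Changes on this scale understate those of low genes, because of the added 1.

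**Figure D1:**
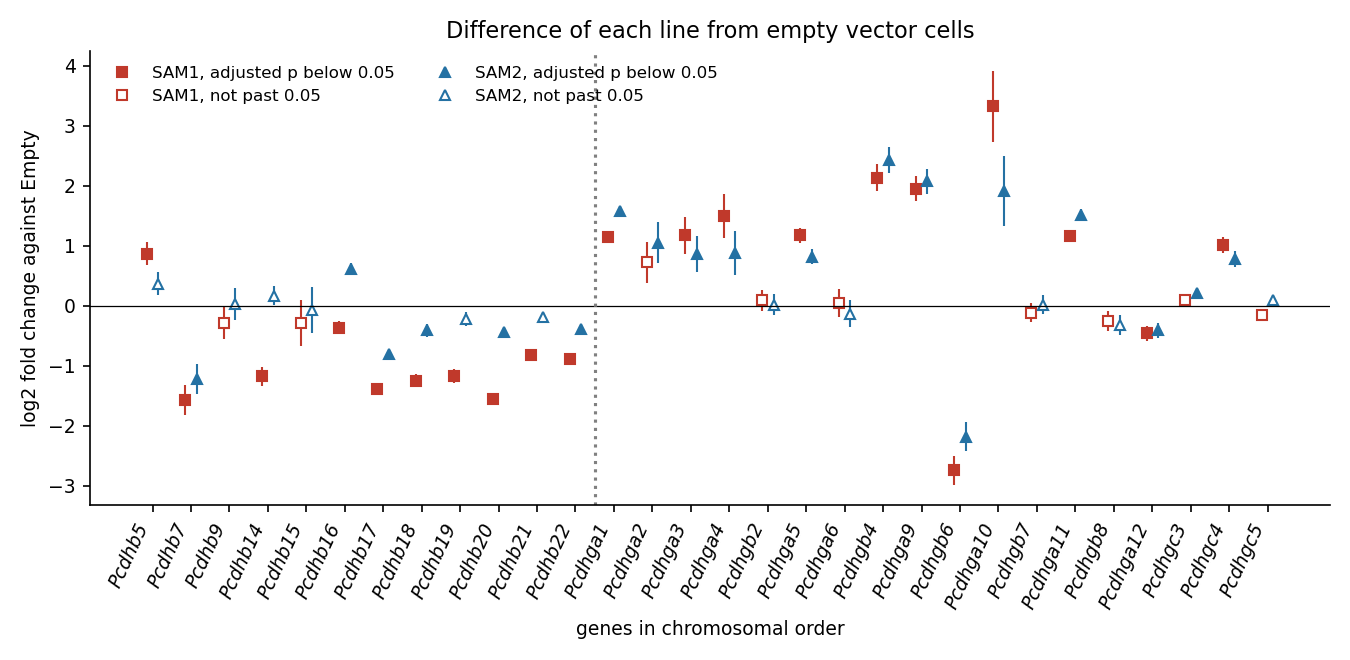
Log2 fold change of each listed clustered protocadherin in SAM1 (squares) and SAM2 (triangles) against Empty, in chromosomal order, with the beta genes left and the gamma genes right of the dotted line; bars are standard errors and filled symbols have an adjusted p below 0.05. From Pcdhb17 to Pcdhb22 all values are below 0, and gamma A genes such as Pcdhga1 and Pcdhga11 lie above 0 in both lines.

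Most beta genes were lower in SAM1, and fewer in SAM2. Of the 12 listed, 9 fell and 1 rose in SAM1 with a median log2 change of -1.03, where 36.9% of all genes were called lower. In SAM2 5 fell, 1 rose and 6 were not called, with a median of -0.21, where 35.3% of all genes were called lower, so this count is near the background. The summed beta level was 5905, 5395 and 5757 normalized counts in Empty, 2824, 2594 and 2750 in SAM1, and 4221, 4213 and 4418 in SAM2. The groups did not overlap, with SAM1 lowest, SAM2 between and Empty highest. The ratio to Empty was 0.479 in SAM1 and 0.754 in SAM2. For such single sums an exact permutation test of 3 libraries against 3 cannot go below p = 0.1, and none is given.

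*Pcdhb22*, the last gene of the cluster and its most abundant member, had 2452, 2259 and 2333 normalized counts in Empty, 1299, 1225 and 1276 in SAM1, and 1786, 1787 and 1833 in SAM2. Its groups did not overlap and stood in the same order as the cluster sum. The log2 change was -0.89 ± 0.04 (SE, n = 3 per group, adjusted p = 2.333e-10, limma) in SAM1 and -0.38 ± 0.04 (adjusted p = 1.525e-06) in SAM2. *Pcdhb17* had 1217, 1175 and 1255 normalized counts in Empty, 456, 442 and 491 in SAM1, and 694, 704 and 696 in SAM2, again without overlap. It fell by 1.39 ± 0.05 on the log2 scale in SAM1 (adjusted p = 2.698e-11, limma) and by 0.80 ± 0.05 in SAM2 (adjusted p = 9.644e-09). *Pcdhb20* had 801, 724 and 772 normalized counts in Empty, 267, 251 and 258 in SAM1, and 532, 560 and 597 in SAM2. Every SAM1 library was below every SAM2 library and these below every Empty library. Its log2 change was -1.56 ± 0.06 in SAM1 (adjusted p = 5.821e-11, limma) and -0.44 ± 0.06 in SAM2 (adjusted p = 2.055e-05).

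*Pcdhb7*, in the upstream part of the cluster, had a low level. It measured 29.7, 25.2 and 35.05 normalized counts in Empty, 10.4, 7.90 and 9.77 in SAM1, and 12.9, 9.27 and 14.8 in SAM2. Empty libraries lay above all others, and the lines overlapped each other. The log2 change was -1.58 ± 0.25 in SAM1 (adjusted p = 7.557e-05, limma) and -1.23 ± 0.25 in SAM2 (adjusted p = 0.0006704). *Pcdhb18* also fell in both lines, by 1.25 and 0.41 on the log2 scale. *Pcdhb19* fell by 1.17 and *Pcdhb21* by 0.83 in SAM1, while their values of -0.22 and -0.20 in SAM2 did not pass the test (adjusted p = 0.1195 and 0.05395, limma). *Pcdhb19* passed in SAM2 without SAM1 replicate 2 (-0.22), and *Pcdhb21* without Empty replicate 2 (-0.26), SAM1 replicate 3 (-0.20) or SAM2 replicate 3 (-0.25). Both passed there after quantile normalization, and all SAM2 libraries of *Pcdhb19* lay below those of Empty. *Pcdhb9* and *Pcdhb15*, with means between 9.70 and 20.4 normalized counts in every group, passed in neither line.

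**Figure D2:**
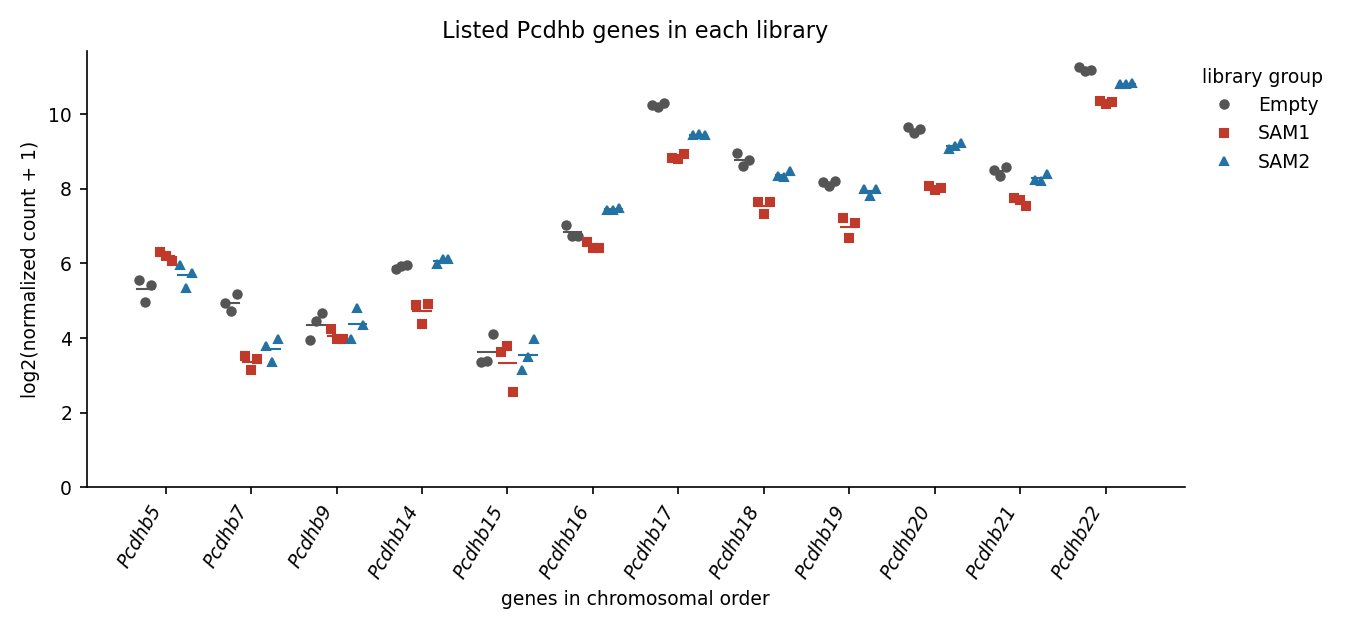
Level of the 12 listed beta genes in each library as log2(normalized count + 1), in chromosomal order, with a point per library and a line at the group mean. Pcdhb22 and Pcdhb17 are the highest, and for both the 3 SAM1 libraries lie lowest, the 3 SAM2 libraries between and the 3 Empty libraries highest.

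Other beta genes did not follow this order, and they are named after their values were seen. *Pcdhb16* had 129, 105 and 106 normalized counts in Empty, 94.0, 84.9 and 84.0 in SAM1, and 172, 172 and 177 in SAM2. It fell in SAM1 by 0.36 ± 0.10 on the log2 scale (adjusted p = 0.005665, limma) and rose in SAM2 by 0.62 ± 0.10 (adjusted p = 0.0001114), with no overlap between any groups. *Pcdhb14* measured 56.3, 59.9 and 60.7 normalized counts in Empty, 28.5, 19.7 and 29.3 in SAM1, and 62.3, 68.6 and 68.7 in SAM2. It was lower in SAM1 (log2 change -1.18 ± 0.16, adjusted p = 1.915e-05, limma), and its value of 0.17 ± 0.16 in SAM2 did not pass (adjusted p = 0.3626), though all SAM2 libraries lay above those of Empty. *Pcdhb5*, the first listed gene of the cluster, had 46.0, 30.5 and 42.1 normalized counts in Empty, 78.8, 72.1 and 65.4 in SAM1, and 61.3, 39.9 and 52.9 in SAM2. It rose in SAM1 by 0.87 ± 0.19 (adjusted p = 0.000984, limma), where its libraries lay above all Empty ones. In SAM2 it overlapped Empty at 0.37 ± 0.19 (adjusted p = 0.09763), and it passed the test there without Empty replicate 1 (0.49) or without SAM2 replicate 2 (0.54).

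Compared directly, 11 members were higher in SAM2 than in SAM1 (31.1% of all genes) and 2 lower (29.2% of all genes), or 17 and 1 after quantile normalization. No member was lower without SAM1 replicate 1 or without SAM2 replicate 2. Of these, 8 higher and 1 lower were beta genes. *Pcdhb22* was higher in SAM2 by 0.51 ± 0.04 on the log2 scale, *Pcdhb17* by 0.59 ± 0.05 and *Pcdhb20* by 1.12 ± 0.06. The widest such difference among the beta genes was 1.35 ± 0.16 for *Pcdhb14*.

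Within the beta sum the leading 3 genes kept their places. *Pcdhb22* gave 40.5% to 47.2% of it in every library, and *Pcdhb17* and *Pcdhb20* came next in all 9 libraries. The mean share of *Pcdhb17* was 21.4% ± 0.68 (SD, n = 3) in Empty, 17.0% ± 0.86 in SAM1 and 16.3% ± 0.49 in SAM2. That of *Pcdhb20* was 13.5% ± 0.09 in Empty, 9.496% ± 0.15 in SAM1 and 13.1% ± 0.47 in SAM2.

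Gamma A genes were mostly higher. Leaving out *Pcdhga9* and *Pcdhga10*, which had to differ to pass the filter, 5 of 8 rose and 1 fell in SAM1 with a median log2 change of 1.16, and 6 rose and 1 fell in SAM2 with a median of 0.87. The shares called higher over all genes were 37.3% and 35.2%. With both genes the counts were 7 and 8 higher of 10. *Pcdhga2*, *Pcdhga3* and *Pcdhga4* also needed libraries of the lines to reach the filter. In a fit limited to genes above 10 in every library, which kept 5 gamma A genes, 3 were higher and 1 lower in each line. The summed gamma A level was 1271, 954 and 998 normalized counts in Empty, 2210, 2086 and 2324 in SAM1, and 2613, 2533 and 2664 in SAM2. No group overlapped another, and SAM2 was highest. The ratio to Empty was 2.05 in SAM1 and 2.42 in SAM2.

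**Figure D3:**
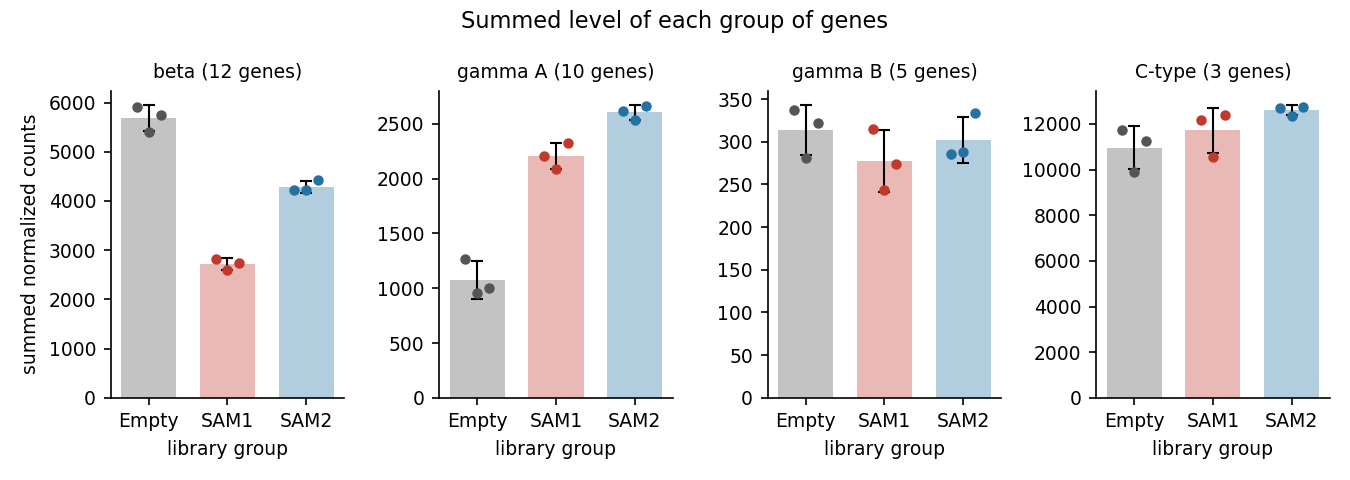
Summed normalized counts of the beta, gamma A, gamma B and C-type genes, with a point per library, bars at the mean of 3 libraries and error bars of 1 SD. The beta sum is lower and the gamma A sum higher in all SAM1 and SAM2 libraries than in the Empty libraries, and the gamma B groups overlap.

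*Pcdhga11* was the most abundant gamma A gene. It had 629, 463 and 463 normalized counts in Empty, 1118, 1102 and 1233 in SAM1, and 1496, 1435 and 1486 in SAM2, with no overlap between groups. It rose by 1.16 ± 0.10 on the log2 scale in SAM1 (adjusted p = 1.219e-07, limma) and 1.52 ± 0.10 in SAM2 (adjusted p = 1.059e-08). *Pcdhga1*, the first gene of the cluster, measured 250, 193 and 230 normalized counts in Empty, 517, 457 and 515 in SAM1, and 635, 673 and 695 in SAM2. All libraries of SAM2 lay above those of SAM1 and these above Empty. The log2 changes were 1.15 ± 0.09 (adjusted p = 5.582e-08, limma) and 1.58 ± 0.09 (adjusted p = 3.061e-09). *Pcdhga5* had 178, 124 and 124 normalized counts in Empty, 321, 303 and 328 in SAM1, and 263, 224 and 255 in SAM2, so that here SAM1 was highest and SAM2 between. It rose by 1.18 ± 0.12 in SAM1 (adjusted p = 1.497e-06, limma) and 0.82 ± 0.12 in SAM2 (adjusted p = 5.453e-05).

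*Pcdhga9* and *Pcdhga10*, the members that passed the filter without an Empty library, are given as a description. *Pcdhga9* had 6.14, 5.25 and 7.01 normalized counts in Empty, 27.5, 27.6 and 24.4 in SAM1, and 27.7, 32.5 and 26.9 in SAM2. Both lines lay above Empty and overlapped each other, with log2 changes of 1.95 ± 0.21 and 2.08 ± 0.21. *Pcdhga10* had 3.07, 0 and 7.01 normalized counts in Empty, which were 3, 0 and 6 reads. It had 34.2, 35.5 and 24.4 normalized counts in SAM1 and 12.9, 13.9 and 7.42 in SAM2. No groups overlapped, and the log2 changes on the pseudocount scale were 3.32 ± 0.58 and 1.91 ± 0.58. All 2634 own exon bases of *Pcdhga10* lie opposite exons of *Gm26672*, a gene on the other strand. That gene also overlaps 1393 bases of *Pcdhga11*, 824 of *Pcdhga12*, 771 of *Pcdhgb7*, 196 of *Pcdhgb6* and 7 of *Pcdhga9*. Of these, *Pcdhga11* and *Pcdhga9* rose in both lines, *Pcdhga12* and *Pcdhgb6* fell in both, and *Pcdhgb7* was not called. *Gm26672* had mean normalized counts of 9.08 in Empty, 45.9 in SAM1 and 42.3 in SAM2 (log2 changes 2.24 and 2.13). Its Empty libraries had 7.16, 8.40 and 11.7, so it too needed libraries of the lines to reach the filter. Libraries were made with a strand-directional kit, but the strand setting of the counting is not given in the sources used here. The share of antisense reads in *Pcdhga10*, in *Pcdhga11* and thus the gamma A sum, and in the other overlapped members was not tested.

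*Pcdhga3* and *Pcdhga4* had means of 11.5 and 8.47 normalized counts in Empty. They rose in SAM1 by 1.17 and 1.49 on the log2 scale and in SAM2 by 0.87 and 0.88. *Pcdhga2*, with a mean of 9.51 in Empty, rose in SAM2 (1.05) and did not pass in SAM1 (0.72, adjusted p = 0.0733, limma), where it passed without Empty replicate 1 (1.09). The SAM2 calls of these low genes turned on single libraries. *Pcdhga2* did not pass without Empty replicate 3 (0.80), SAM2 replicate 1 (0.94) or SAM2 replicate 3 (0.90). *Pcdhga3* did not pass without Empty replicate 2 (0.60) or SAM2 replicate 3 (0.61). *Pcdhga4* did not pass without Empty replicate 2 (0.65) or 3 (0.71), SAM1 replicate 1 or 3 (0.88 each), or SAM2 replicate 1 (0.70) or 3 (0.81). With edgeR or DESeq2 on recovered reads, which lack SAM2 replicate 1, *Pcdhga2* and *Pcdhga4* were not called in SAM2, as in limma without that library. After quantile normalization *Pcdhga3* was called in neither line (0.61 and 0.69) and *Pcdhga4* not in SAM2 (0.62), nor was *Pcdhga4* with a pseudocount of 5 (0.64).

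*Pcdhga12*, the last gamma A gene, went the other way. It had 137, 114 and 113 normalized counts in Empty, 92.1, 80.0 and 91.8 in SAM1, and 94.0, 79.7 and 100.2 in SAM2, with both lines below Empty. It fell by 0.46 ± 0.12 on the log2 scale in SAM1 (adjusted p = 0.003816, limma) and by 0.41 ± 0.12 in SAM2 (adjusted p = 0.008346). *Pcdhga6*, with means from 26.2 to 30.1 normalized counts, passed in neither line. Within the gamma A sum the share of *Pcdhga11* was 48.2% ± 1.6 (SD, n = 3) in Empty, 52.2% ± 1.4 in SAM1 and 56.6% ± 0.74 in SAM2. The share of *Pcdhga12* was 11.4% ± 0.61, 3.98% ± 0.17 and 3.50% ± 0.32.

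**Figure D4:**
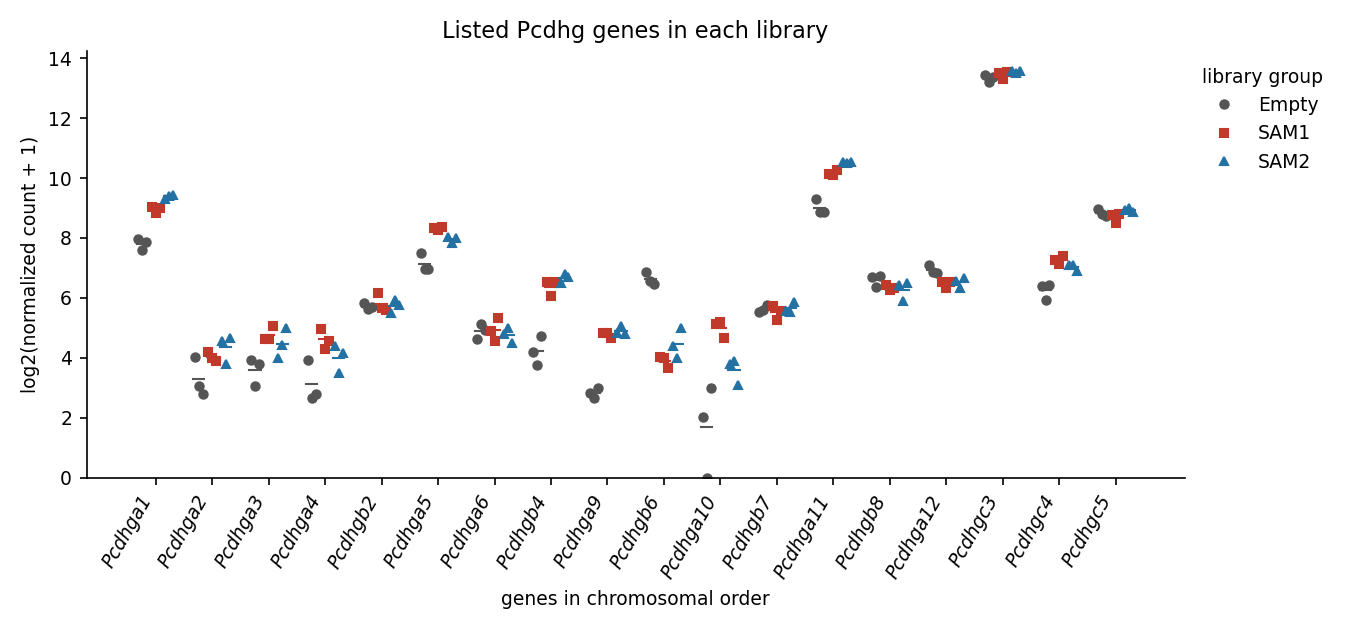
Level of the 18 listed gamma genes in each library as log2(normalized count + 1), in chromosomal order, with a point per library and a line at the group mean. Pcdhgc3 is far above the others, and Pcdhgb4 and Pcdhgb6 change places between Empty and both lines.

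Of the 5 gamma B genes 1 was called higher and 1 lower in each line. Over all genes 37.3% were called higher and 36.9% lower in SAM1, and 35.2% and 35.3% in SAM2. The gamma B counts thus do not exceed the background. The gamma B sum was 338, 282 and 322 normalized counts in Empty, 315, 243 and 274 in SAM1, and 286, 287 and 333 in SAM2, and the groups overlapped. *Pcdhgb4* had 17.4, 12.6 and 25.7 normalized counts in Empty, 92.1, 65.2 and 90.8 in SAM1, and 90.0, 109 and 103 in SAM2. Both lines lay above Empty and overlapped each other. It rose by 2.13 ± 0.22 on the log2 scale in SAM1 (adjusted p = 1.281e-06, limma) and 2.43 ± 0.22 in SAM2 (adjusted p = 4.258e-07). *Pcdhgb6* was the reverse, at 117, 92.4 and 87.6 normalized counts in Empty, 15.2, 14.8 and 11.7 in SAM1, and 19.8, 14.8 and 30.6 in SAM2. It fell by 2.74 ± 0.24 in SAM1 (adjusted p = 2.348e-07, limma) and 2.18 ± 0.24 in SAM2 (adjusted p = 2.717e-06), the largest falls among the members. In reads, *Pcdhgb6* had 114, 88 and 75 in Empty, against 12 to 16 in SAM1.

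The remaining gamma B genes passed in neither line. *Pcdhgb8* had 103, 80.9 and 105 normalized counts in Empty, 85.4, 76.0 and 79.1 in SAM1, and 85.1, 58.4 and 90.0 in SAM2, with overlapping groups. It was lower in SAM2 by the test without Empty replicate 2 (-0.44) or SAM2 replicate 3 (-0.44), and in both lines after quantile normalization. *Pcdhgb2* measured 55.2, 48.3 and 50.2 in Empty, 70.2, 49.4 and 46.9 in SAM1, and 44.5, 59.3 and 52.9 in SAM2. *Pcdhgb7* had group means of 45.2 to 49.5 normalized counts. *Pcdhgb4* thus held 5.87% ± 1.9 (SD, n = 3) of the gamma B sum in Empty, 29.7% ± 3.2 in SAM1 and 33.5% ± 4.0 in SAM2, and *Pcdhgb6* 31.5% ± 3.9, 5.06% ± 0.94 and 7.09% ± 2.0.

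**Figure D5:**
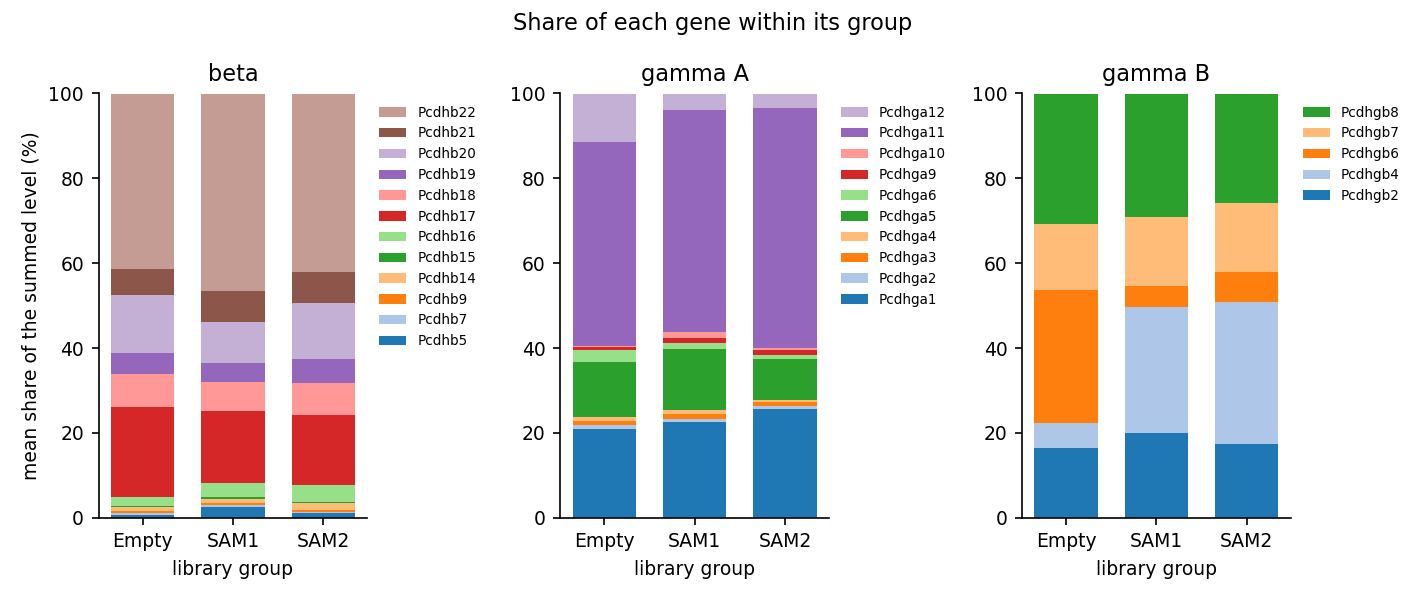
Mean share of each gene in the summed level of the listed beta, gamma A and gamma B genes, in percent, with a stacked bar per library group (means of 3 libraries). Pcdhb22 and Pcdhga11 are the largest shares in every group, and the shares of Pcdhgb4 and Pcdhgb6 are exchanged between Empty and both lines.

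Among the C-type genes, *Pcdhgc3* dominated the family. It had 11143, 9407 and 10727 normalized counts in Empty, 11585, 10071 and 11799 in SAM1, and 12071, 11705 and 12176 in SAM2. SAM1 overlapped Empty (log2 change 0.10 ± 0.06, adjusted p = 0.1819, limma), and it passed the test without SAM1 replicate 2 (0.17) and after quantile normalization (0.24, adjusted p = 0.002802). SAM2 lay above every Empty library, with a rise of 0.20 ± 0.06 (adjusted p = 0.0111). The share of *Pcdhgc3* in the gamma sum was 84.5% ± 0.91 (SD, n = 3) in Empty, 78.5% ± 0.38 in SAM1 and 77.3% ± 0.11 in SAM2, while the gamma A sum was larger in both lines. The exons of *BC037039* on the other strand overlap 1560 of its bases, and that gene had 151, 203 and 147 mean normalized counts in Empty, SAM1 and SAM2.

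*Pcdhgc4* had 82.9, 59.9 and 85.3 normalized counts in Empty, 154, 139 and 168 in SAM1, and 135, 134 and 119 in SAM2. Both lines lay above Empty. It rose by 1.02 ± 0.14 on the log2 scale in SAM1 (adjusted p = 1.401e-05, limma) and 0.78 ± 0.14 in SAM2 (adjusted p = 0.0001797). *Pcdhgc5* measured 496, 443 and 428 normalized counts in Empty, 436, 359 and 439 in SAM1, and 490, 506 and 466 in SAM2. It overlapped Empty in both lines and was called in neither (log2 changes -0.15 ± 0.08 and 0.10 ± 0.08).

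Genes beside or between the clusters were examined as neighbours. Of 13 such genes 8 were higher and 3 lower in SAM1, and 9 were higher and 2 lower in SAM2, beside 37.3% higher and 36.9% lower of all genes in SAM1 and 35.2% and 35.3% in SAM2. The genes lower in both lines, *Slc25a2* and *Taf7*, both lie between the beta and gamma clusters. *Slc25a2*, a mitochondrial carrier, had 13.3, 19.96 and 18.7 normalized counts in Empty, 4.75, 3.95 and 7.81 in SAM1, and 6.92, 7.42 and 7.42 in SAM2, so both lines lay below Empty (log2 changes -1.52 and -1.13). It was above 10 in no library of either line and passed the filter only through the Empty libraries, so it had to be lower. *Taf7*, a subunit of the general transcription factor TFIID, changed by -0.35 and -0.19. DESeq2 on recovered reads did not call either in SAM2. Next to them, just before the gamma cluster, *3222401L13Rik* (chosen after its values were seen) had mean normalized counts of 8.82 in Empty, 27.5 in SAM1 and 39.4 in SAM2, and rose by 1.62 and 2.13. Its Empty libraries had 6.14, 6.30 and 14.0, so it needed libraries of the lines to reach the filter. Downstream of the gamma cluster *Diaph1*, an actin-nucleating formin, rose by 0.84 and 0.38, *Rell2* by 0.83 and 0.92, *Fchsd1* by 0.48 and 0.47 and *Arap3* by 1.79 and 1.65. Upstream of the alpha cluster *Ik* (0.12 and 0.09), *Dnd1* (0.83 and 0.43), *Hars* (0.31 and 0.13) and *Zmat2* (0.20 and 0.11) were higher, of which *Dnd1* was not called in SAM2 under edgeR, DESeq2 and quantile normalization, and *Zmat2* not under DESeq2. The listed non-member genes within 1 Mb of the clusters numbered 40 and included these neighbours except *Hars*. Of these 40, 25 were higher and 9 lower in SAM1 (median 0.40), and 23 were higher and 11 lower in SAM2 (median 0.20). On the rest of chromosome 18 with these neighbours, 377 genes, 156 were higher and 109 lower in SAM1, and 177 were higher and 90 lower in SAM2.

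Of the known regulators of the clusters 20 were examined, and all 20 were listed. In SAM1 16 were higher and 3 lower with a median log2 change of 0.28, and in SAM2 14 were higher and 3 lower with a median of 0.37, where 37.3% and 35.2% of all genes were called higher. *Ctcf*, the DNA-binding protein that anchors promoter and enhancer loops, had mean normalized counts of 3590 in Empty, 4352 in SAM1 and 4573 in SAM2 (log2 changes 0.28 and 0.35). Of the cohesin genes and their cofactors, these rose in both lines, with changes of 0.58 and 0.75 for *Rad21*, 0.56 and 0.42 for *Smc1a*, 0.17 and 0.10 for *Smc3*, 0.40 and 0.66 for the loader *Nipbl*, and 0.61 and 0.72 for the release factor *Wapl*. *Smchd1*, a silencer of clustered protocadherin genes, rose by 0.28 and 0.61.

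DNA methylation genes moved in both directions. *Dnmt1*, the maintenance methyltransferase, rose by 0.31 and 0.39 and its partner *Uhrf1* by 1.26 and 0.90, while *Dnmt3a* changed by -0.45 and -0.15. *Dnmt3b*, with a mean of 67.3 normalized counts in Empty, rose by 0.36 and 0.75, and its value in SAM1 was below 0 after quantile normalization and not called with DESeq2. The demethylating enzymes changed by 0.93 and 1.21 for *Tet1*, 0.23 and 0.25 for *Tet2* and 0.16 and 0.53 for *Tet3*, where *Tet2* passed in neither line after quantile normalization. *Setdb1*, a histone methyltransferase, rose by 0.29 and 0.19. *Yy1* changed by -0.29 and -0.26 and *Rest*, a repressor of neuronal genes, by -0.23 and -0.12, and *Rest* was not called in SAM2 by edgeR or DESeq2.

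Partners of the proteins were listed for 17 of 18 genes. In SAM1 10 were higher and 5 lower, and in SAM2 8 were higher and 5 lower, where 37.3% and 35.2% of all genes were called higher and 36.9% and 35.3% lower. The focal adhesion kinase genes, whose products the alpha and gamma proteins restrain, rose in both lines by 0.22 and 0.74 for *Ptk2* and by 2.67 and 2.28 for *Ptk2b*. *Ret*, a receptor tyrosine kinase, had mean normalized counts of 19.1 in Empty, 206 in SAM1 and 222 in SAM2 (3.45 and 3.55). Of the WAVE complex, which branches actin, *Wasf1* changed by 0.30 and 0.39, *Nckap1* by 0.19 and 0.13, *Cyfip1* by -0.37 and -0.28 and *Cyfip2* by 2.02 and 0.80, the last not called in SAM2 by edgeR, DESeq2 or after quantile normalization. With 11.3, 7.35 and 5.84 normalized counts in Empty, *Cyfip2* needed libraries of the lines to reach the filter. *Marcks* changed by -0.27 and -0.21, *Prkca* by -0.44 and -0.30 and *Nlgn2* by 0.37 and 0.55. *Ctnnb1* rose by 0.09 in SAM1 and fell by 0.13 in SAM2, with the sign in SAM2 turned after quantile normalization.

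Other cadherins were examined for comparison. Of all genes, 37.3% were called higher and 36.9% lower in SAM1, and 35.2% and 35.3% in SAM2. Of the non-clustered protocadherins 7 of 12 were listed, with 5 higher and 1 lower in SAM1 and 3 higher and 4 lower in SAM2. *Pcdh19*, at means of 11787, 6617 and 6961 normalized counts in Empty, SAM1 and SAM2, changed by -0.83 and -0.76. *Pcdh7* rose by 2.56 and 1.001, *Pcdh9* by 2.07 and 0.32 and *Pcdh1* by 1.24 and 1.04. *Pcdh18* was higher in SAM1 (0.43) and lower in SAM2 (-0.28). *Pcdh20* had 7.16, 12.6 and 17.5 normalized counts in Empty, 215, 184 and 182 in SAM1, and 2.97, 2.78 and 0 in SAM2, so SAM1 lay above and SAM2 below Empty. Of 20 classical and related cadherins 16 were listed, with 10 higher and 3 lower in SAM1 and 8 higher and 5 lower in SAM2. *Cdh2*, the cadherin of mesenchymal cells, changed by -0.58 and -0.94, *Cdh11* by -0.85 and -0.76 and *Dchs1* by -3.02 and -1.69. *Cdh3* (1.65 and 1.56), *Cdh10* (1.69 and 2.38), *Fat1* (0.38 and 0.43), *Fat4* (2.25 and 1.44), *Celsr1* (3.10 and 1.39), *Celsr2* (1.098 and 0.70) and *Celsr3* (2.65 and 1.44) were higher in both lines, of which *Celsr2* and *Celsr3* were not called in SAM2 by edgeR or DESeq2. *Celsr3* was above 10 in no Empty library and passed the filter only through the lines, so it had to be higher. *Cdh13* rose by 0.66 in SAM1 and fell by 0.60 in SAM2.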

How the data were processed

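PolyA+ RNA libraries were made with a strand-directional kit and sequenced in pairs of 43 bases. Per the labels, the authors checked reads with FastQC 0.11.0, aligned them with TopHat2 and Bowtie to GRCm39, counted them with HTSeq and normalized with DESeq2. The deposited values are a signal, counts divided by DESeq2 size factors, for genes above 10 in at least 30% of libraries. They are not raw counts. All value columns were used.

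Here log2(value + 1) was fitted with limma 3.58.1 in R 4.3.3 (empirical Bayes with a trend), with 3 groups in a fit and a second fit for the pooled lines, and Benjamini-Hochberg adjustment over 15184 genes at 0.05. Reads were recovered in 8 libraries, where 100% of values were whole multiples of a single read's worth within 0.1, and not in SAM2 replicate 1. Counting error limits low members, which had as few as 0 to 36 reads. Library pairs of a group differed by a chi-square per gene of 1.45 (SAM1 replicates 1 and 3) to 13.2 (Empty replicates 1 and 2). SAM2 replicates 2 and 3 stood at 2.29. Each library was counted, but these values do not show that libraries of a group were separate cultures. edgeR 4.0.16 and DESeq2 1.42.0 were run on recovered reads as alternatives, as were other pseudocounts, a stricter filter, quantile normalization, a replicate block and each library left out. The edgeR and DESeq2 runs thus lacked SAM2 replicate 1. Limma without that library also did not call *Rest*, *Celsr2* and *Dnd1* in SAM2, while it still called *Cyfip2*, *Celsr3*, *Zmat2*, *Slc25a2* and *Taf7*. Methods were run on simulated counts in which few genes changed, in SAM1 only. In the data 74.3% of genes were called in SAM1 against Empty, so that run does not show how the methods behave here.

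Members and gene lists were chosen with earlier results of these data known. Members given in every library were the 3 with the highest mean in the beta, gamma A and gamma B groups, all C-type genes, and, per line, the 2 called members that went up most and the 2 that went down most. Counts without members above the filter in no Empty library were added after seeing the data. Others named with library values were chosen after their values were seen. Genes of other lists are named where called in both lines. A gene of the regulator list is not reported here and is left out of its counts. Exon overlaps come from GENCODE vM39, while the authors used an earlier release. Sequences were not analysed here.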

Additional observations from a re-analysis of the deposited data

Results flagged for a closer look

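In 13 of the 30 members the change against Empty differed between the lines, by limma's test of SAM2 minus SAM1 on the log2 scale. Of all genes 60.3% were called in that test. In the beta cluster these differences were 0.508 for *Pcdhb22*, 0.592 for *Pcdhb17*, 1.12 for *Pcdhb20*, 1.35 for *Pcdhb14*, 0.983 for *Pcdhb16*, 0.837 for *Pcdhb18*, 0.945 for *Pcdhb19*, 0.631 for *Pcdhb21* and -0.499 for *Pcdhb5*. The last was not called without SAM1 replicate 1 (-0.434) or 2 (-0.497), or without SAM2 replicate 2 (-0.331) or 3 (-0.531). In the gamma cluster they were 0.357 for *Pcdhga11*, 0.428 for *Pcdhga1*, -0.360 for *Pcdhga5* and 0.248 for *Pcdhgc5*. *Pcdhga5* was not called without SAM1 replicate 1 (-0.352) or 3 (-0.335) or SAM2 replicate 2 (-0.291), and *Pcdhgc5* not without SAM1 replicate 2 (0.154) or SAM2 replicate 1 (0.244) or 2 (0.220).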

How the results depend on the processing

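No member called in the SAM1 or SAM2 comparison with Empty changed direction under any alternative run, and all alternative counts of called members stayed within 1.5 times the reported count. No alpha sum could be formed, since no alpha gene was listed. For the beta sum, reported at -1.06 (SAM1) and -0.41 (SAM2) as a log2 ratio, quantile normalization gave -1.15 in SAM1, the mean of log2 values gave -0.83 and -0.21, and leaving out *Pcdhb22* gave -1.20 in SAM1. For the whole gamma sum, reported at 0.20 and 0.33, the mean of log2 values gave 0.66 and 0.62, and leaving out *Pcdhgc3* gave 0.67 and 0.88. The gamma B sum in SAM2 turned from -0.0549 to 0.0451 without its highest member. Signs also turned for members whose reported value was not called. After quantile normalization *Pcdhgb2* was at -0.334 (SAM1), -0.0777 (SAM2) and 0.257 (SAM2 minus SAM1), *Pcdhga6* at -0.450 (SAM1) and 0.200 (SAM2 minus SAM1), *Pcdhb9* at -0.100 and *Pcdhgb7* at -0.0926 (both SAM2), and *Pcdhgb8* at 0.215 and *Pcdhga3* at 0.0758 (both SAM2 minus SAM1). On recovered reads *Pcdhb15* in SAM2 was at 0.120 with edgeR and 0.113 with DESeq2, and *Pcdhgb2* in SAM2 minus SAM1 at 0.00988 and 0.0153. With each library left out in turn, these values crossed 0. In SAM1 *Pcdhgb2* ran from -0.0876 to 0.199, *Pcdhb15* from -0.524 to 0.0926, *Pcdhga6* from -0.158 to 0.221 and *Pcdhgb7* from -0.221 to 0.0120. In SAM2 *Pcdhgb2* ran from -0.0756 to 0.128, *Pcdhb9* from -0.186 to 0.222, *Pcdhb15* from -0.298 to 0.174, *Pcdhga6* from -0.263 to 0.00474, *Pcdhgb7* from -0.0772 to 0.0930 and the gamma B sum from -0.131 to 0.000723. In SAM2 minus SAM1 *Pcdhgb8* ran from -0.182 to 0.126, *Pcdhgb2* from -0.180 to 0.107, *Pcdhb15* from -0.168 to 0.449, *Pcdhga6* from -0.351 to 0.0273 and *Pcdhga12* from -0.0197 to 0.143. The cause was not tested. Same-numbered libraries correlated in their deviations from the group means by 0.00237 to 0.117 over 9 pairs (mean 0.0531), and libraries with different numbers by -0.122 to 0.0460 over 18 pairs (mean -0.0265). Not every same-numbered pair was above 0.1, and the labels name nothing shared, so the numbers were not taken as pairs. A fit with the replicate number as a block called 23 members in SAM1, 23 in SAM2, 15 in SAM2 against SAM1 and 16 in the pooled comparison, against 21, 19, 13 and 18 without it. It added calls of *Pcdhga2* and *Pcdhgc3* in SAM1 and of *Pcdhb5*, *Pcdhb19*, *Pcdhb21* and *Pcdhgb8* in SAM2, and ended none in these comparisons. Among the other genes named as called in both lines, leaving out a library ended at least 1 call of *Tet2*, *Tet3*, *Dnmt3a*, *Rest*, *Cyfip2*, *Celsr2*, *Ik*, *Dnd1* or *Zmat2* and turned no direction.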
